A study of Solanum lycopersicum with 39 samples.

Results

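In leaves of the tomato cultivar M82, 90 of 34075 listed genes were raised after 5 days without water, still raised 1 day after the plants were watered again, and raised by less, or not at all, by 24 h of heat. The members were chosen on measured values, all on group means of FPKM (a level corrected for gene length and library size). A gene needed a mean of at least 5 FPKM after 5 days of drought, a rise of at least 1.5 both after 5 days and after re-watering, and a rise under 1 after 24 h of heat. A rise or fall is here the difference in log2(mean FPKM + 1) from the untreated group of the same series, which makes the change of weakly expressed genes look smaller than it is. Of the 34075 genes, 13535 reached 5 FPKM after 5 days, 1226 of these were also raised by 1.5 after 5 days, and 118 of these were still raised by 1.5 after re-watering. The condition on heat removed 28 of the 118. The rule allowed up to 200 genes, so no member was dropped by rank.

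RNA-seq was carried out on leaves of M82 seedlings, 38 days old by the sample labels. In the drought series (7 groups, 21 libraries), plants in chambers at 25 °C and 70% humidity were no longer watered. The start (D-0d) was set when the soil held about 80% of its water, D-1d to D-5d followed at 1 to 5 days, and D-Recovery plants were re-watered and kept for 1 day. In the heat series (6 groups, 18 libraries), plants were sampled before (Heat-0h) and after 2, 4, 12 and 24 h at 42 °C and 90% humidity, and after 1 day back in the starting conditions (Heat-Recovery), so temperature and humidity changed together. All plants were untransformed M82, each group had 3 libraries, and the D-0d and Heat-0h plants are the only untreated ones. No watered plants of the later days were sampled, and no source used here states the time of day of any sample, so treatment length, plant age and clock time cannot be told apart. The paper gives a younger age for the heat-treated plants than the labels do. It calls the heat libraries biological replicates and says nothing of the drought libraries, so p-values measure the spread between these libraries. In bulk leaf RNA, fewer cells of a type and less RNA per cell cannot be told apart.

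When soil dries, plants make the hormone abscisic acid, which closes the stomata and switches on genes for protective proteins, compatible solutes and water transport. After re-watering, leaves regain turgor, abscisic acid falls and most drought transcripts return towards their starting level. Some stay raised for longer, and such genes are studied as part of recovery and of stress memory in plants. None of the 34075 gene IDs matched the gene table used here, and none of the members carries a symbol in the gene list of the paper, so the members are given by ID, with no function and no sequence.

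None of the 14 genes checked here that the paper names by symbol, beside the light-harvesting antenna genes, was a member. Of these, 3 were raised by 1.5 after 5 days and 0 after re-watering. *NCED3*, which encodes the rate-limiting enzyme of abscisic acid synthesis, had a mean of 97.1 FPKM at D-0d, 258 FPKM at D-5d and 14.3 FPKM at D-Recovery. *APX-2*, an ascorbate peroxidase that removes hydrogen peroxide, came nearest, with differences of 4.48 after 5 days and 1.42 after re-watering, but it was also raised by 6.54 at 24 h of heat. *ERF5*, an ethylene response factor, was raised by 3.02 after 5 days and stood at 0.42 after re-watering.

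The members spanned a wide range of levels. Their median was 3.41 FPKM at D-0d (range 0 to 220), 30.2 FPKM at D-5d (5.10 to 3641) and 20.4 FPKM at D-Recovery (2.31 to 675). At D-0d 20 members were below 1 FPKM and 22 were at 10 FPKM or more, and 17 reached 100 FPKM at D-5d. These values chose the members and are a description. In 82 of the 90 members, all 3 libraries lay above all D-0d libraries at D-5d, and in 82 at D-Recovery, beside 39.1% and 28.2% of all 19963 genes tested, and nothing is read from these counts because the rule used these groups. Just inside and just outside the limits, the difference was 1.51 and 1.49 after re-watering, 1.51 and 1.49 after 5 days, and 0.95 and 1.05 at 24 h of heat, and the level at D-5d was 5.10 and 4.81 FPKM.

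**Figure D1:**
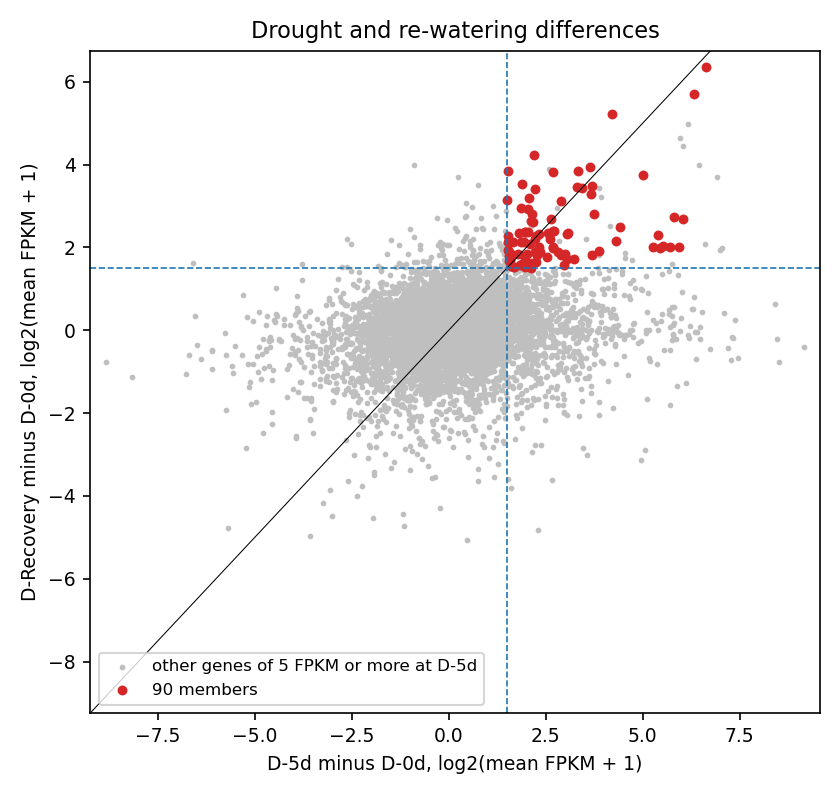
Each point is a gene with at least 5 FPKM at D-5d; the x axis gives the difference in log2(mean FPKM + 1) between D-5d and D-0d and the y axis that between D-Recovery and D-0d (means of 3 libraries). The 90 members (red) are those of the 118 genes beyond 1.5 on both axes (dashed lines) that also met the condition on heat. Of the members, 36 lie above the diagonal of equal difference.

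The libraries differed in ways that touch these genes. Replicate 3 of D-5d correlated at 0.942 and 0.948 with the other libraries of its group and at 0.968 with replicate 1 of D-3d. The summed level of 22 light-harvesting antenna genes, which mark photosynthetic leaf cells and all exceeded 100 FPKM in D-0d, was 5326 FPKM in that library against 1174 and 1187 FPKM in the other D-5d libraries. Over groups this sum ranged from 31171 to 38194 FPKM at D-0d, from 1174 to 5326 FPKM at D-5d and from 28952 to 33681 FPKM at D-Recovery, so at D-Recovery the antenna genes were near the untreated level while the members, by their choice, were not. The part of leaf makeup in the members' values was not tested. Without replicate 3 of D-5d the rule returned 86 genes, of which 77 were among the 90. Replicate 2 of D-3d listed 13889 genes at 0 against 10819 to 12054 in the other drought libraries.

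Membership depended on single libraries for many genes near the limits. Leaving out each of the 15 libraries that the rule used returned 81 to 116 genes, and 46 of the 90 members were returned in all 15 runs. The member with the largest rise after re-watering was *Solyc05g045670.4*, and it was returned in all 15 runs. It was at 0.961, 0.721 and 0.924 FPKM at D-0d, at 264, 264 and 371 FPKM at D-4d, at 419, 102 and 36.2 FPKM at D-5d and at 214, 141 and 98.9 FPKM at D-Recovery. No library from D-4d on overlapped D-0d, and the differences were 7.33 at D-4d, 6.64 at D-5d and 6.35 at D-Recovery. The gene was still near its untreated level at D-1d (0.642 ± 0.177 FPKM, SD, n = 3).

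The next in order, *Solyc01g080870.3*, was already high after 1 day. Its libraries read 1.42, 1.69 and 1.73 FPKM at D-0d, 40.3, 46.0 and 54.5 FPKM at D-1d, 286, 130 and 215 FPKM at D-5d and 119, 154 and 134 FPKM at D-Recovery. The means of the days between, 69.4 FPKM at D-2d, 117 FPKM at D-3d and 156 FPKM at D-4d, stood in order of days, although D-2d and D-1d overlapped. Differences from D-0d were 4.20 at D-1d, 6.34 at D-5d and 5.71 at D-Recovery.

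Members differed in whether they stood higher under drought or after water returned. The 3 genes that follow were chosen after their values were seen. *Solyc08g080650.3* had the highest level of all members, with 4511, 6099 and 311 FPKM at D-5d, and 430, 49.9 and 350 FPKM at D-Recovery, against 65.0, 12.7 and 127 FPKM at D-0d. Its low D-5d value came from replicate 3, and its D-Recovery and D-0d libraries overlapped. *Solyc05g024260.3* showed the largest drop from 5 days to re-watering, from 696 ± 299 FPKM to 45.1 ± 4.6 FPKM (SD, n = 3), which is 3.92 on the log2 scale, and still stood above its D-0d level of 10.4 ± 1.43 FPKM. *Solyc02g071220.3* went the other way, from 15.6 ± 5.16 FPKM at D-5d to 82.4 ± 30.6 FPKM at D-Recovery, a gain of 2.32.

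Across the 90 members the difference of D-Recovery from D-5d had a median of -0.24 and ranged from -3.92 to 2.32. In 45 members the means differed by less than 0.5, in 29 D-Recovery was lower by 0.5 or more and in 16 it was higher by 0.5 or more. D-Recovery was lower by 1 or more in 18 members and higher by 1 or more in 9. In 9 members D-Recovery was lower by 2 or more. Both groups entered the rule, which kept only genes raised in both, so these differences were not tested.

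The members entered the rise on different days. The first day with a difference of at least 1.5 from D-0d was D-1d in 32 members, D-2d in 14, D-3d in 4, D-4d in 23 and D-5d in 17, and 29 members held 1.5 or more on all 5 days. The median difference of the members was 0.90 at D-1d, 1.48 at D-2d, 1.62 at D-3d, 2.12 at D-4d, 2.30 at D-5d and 2.13 at D-Recovery. Over all 19963 genes tested the median was 0.06, 0.15, 0.18, 0.22, 0.17 and 0.06 at the same groups. At D-1d, 32 members had reached 1.5, as had 3.65% of all genes tested. At D-4d, 71 members had, as had 6.52% of all genes. These differences share the D-0d libraries with the rule and carry no test.

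**Figure D2:**
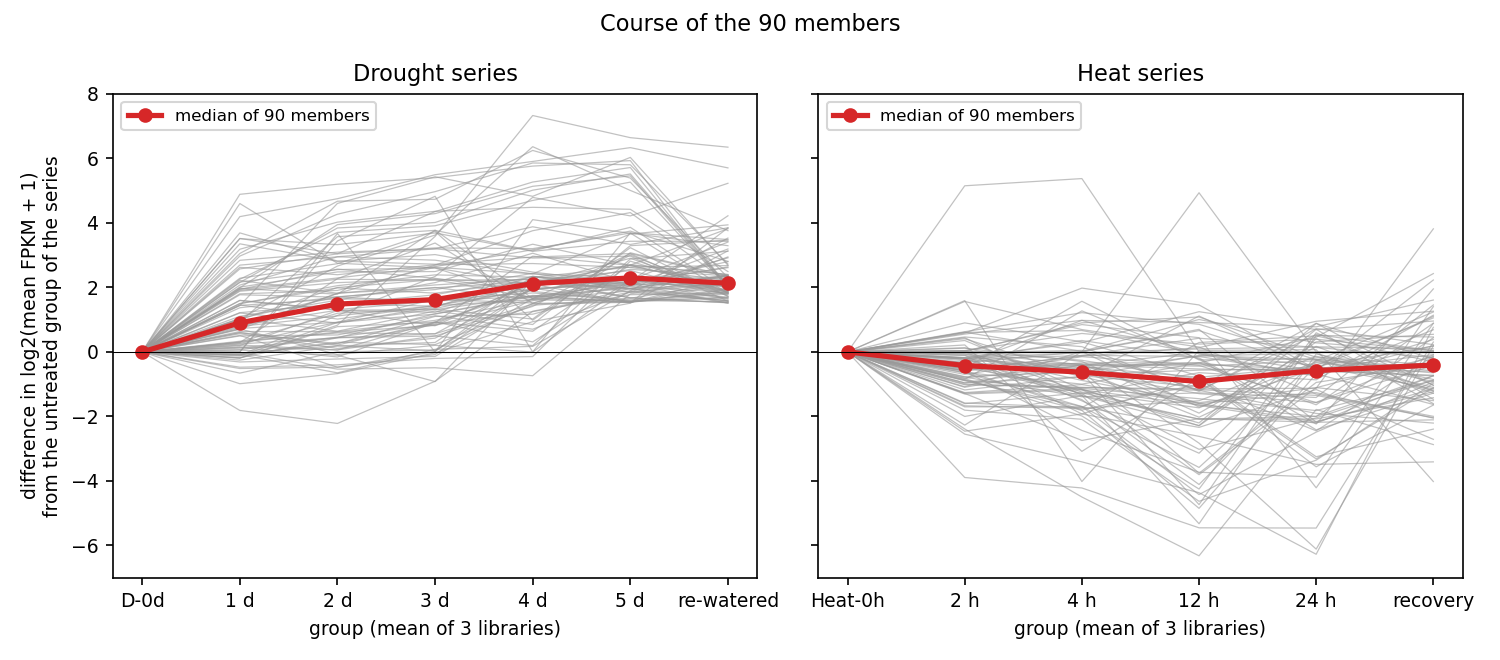
Difference in log2(mean FPKM + 1) from the untreated group, for the drought series (left, from D-0d) and the heat series (right, from Heat-0h), with 1 grey line per member and the median of the 90 members in red (group means of 3 libraries). The median rose to 2.30 at D-5d and stood at 2.13 after re-watering, and it stood at -0.92 at 12 h of heat.

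The level after re-watering was set beside the day of the first rise. Among the 32 first raised at D-1d, the median difference between D-Recovery and D-5d was -0.62, and 6 had a higher difference at D-Recovery. Among the 17 first raised at D-5d, the median was 0.39, and 13 had a higher difference at D-Recovery. The grouping by day used D-0d and all days of drought, and the rule used D-0d, D-5d and D-Recovery. For this reason the contrast was not tested. The median rise at D-5d was 1.97 in the late members and 3.05 in the early ones. Since the rule kept only genes still raised by 1.5 at D-Recovery, the late members had less room to fall and remain members. The part of this limit in the contrast was not tested.

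Members that neighbour each other in ID order made up 4 pairs, on chromosomes 1, 3, 7 and 8 by their IDs. Reads of near-identical copies can be assigned to either of them, and how alike the members of a pair are was not analysed here. *Solyc01g006290.4* and *Solyc01g006300.3* on chromosome 1 were both raised from the first day with unlike courses. *Solyc01g006290.4* was at 4.16, 5.80 and 9.20 FPKM at D-0d, from 101 to 249 FPKM at D-1d, 26.7, 28.8 and 36.7 FPKM at D-4d and 135, 29.5 and 145 FPKM at D-Recovery. It was highest at D-1d, and D-4d did not overlap D-1d. *Solyc01g006300.3* was at 43.0, 27.4 and 67.4 FPKM at D-0d, 335, 235 and 335 FPKM at D-1d, 729, 721 and 619 FPKM at D-4d and 945, 359 and 721 FPKM at D-Recovery. All of its libraries from D-1d on exceeded those of D-0d.

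The pair on chromosome 3 rose only at the end of the drought. *Solyc03g025710.3* was at 0.813, 0.918 and 0.588 FPKM at D-0d and at 0.559, 0.795 and 0.948 FPKM at D-4d, and then at 7.95, 4.30 and 8.97 FPKM at D-5d and 29.6, 36.2 and 30.4 FPKM at D-Recovery. Its D-Recovery libraries all lay above its D-5d libraries. *Solyc03g025720.3* went from 8.44, 3.40 and 12.5 FPKM at D-0d and 14.8, 12.6 and 12.3 FPKM at D-4d to 57.6, 58.8 and 59.2 FPKM at D-5d and 38.7, 56.2 and 46.7 FPKM at D-Recovery. For this gene D-5d lay above D-Recovery in every library.

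The pairs on chromosomes 7 and 8 rose from D-4d or before. *Solyc07g007755.1* had the highest level of all members at D-0d, with 219, 229 and 213 FPKM. It was at 1223, 1189 and 1179 FPKM at D-4d and 733, 528 and 644 FPKM at D-Recovery. Its neighbour *Solyc07g007750.3* was at 1.82, 3.00 and 2.14 FPKM at D-0d, 10.6, 9.61 and 8.29 FPKM at D-4d, 14.9, 31.1 and 0.902 FPKM at D-5d and 16.6, 7.81 and 12.5 FPKM at D-Recovery, so replicate 3 was low among the D-5d libraries and lay below all D-0d libraries. *Solyc08g007060.4* read 4.37, 7.91 and 5.04 FPKM at D-4d and 6.01 ± 7.80 FPKM at D-5d (SD, n = 3), and *Solyc08g007070.2* read 4.10, 5.86 and 4.68 FPKM and 14.2, 0.439 and 2.84 FPKM, so both had 1 high and 2 low D-5d libraries. At D-Recovery they were at 6.20 ± 1.68 and 8.48 ± 3.82 FPKM (SD, n = 3), above 0.484 ± 0.119 and 1.16 ± 0.338 FPKM at D-0d.

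**Figure D3:**
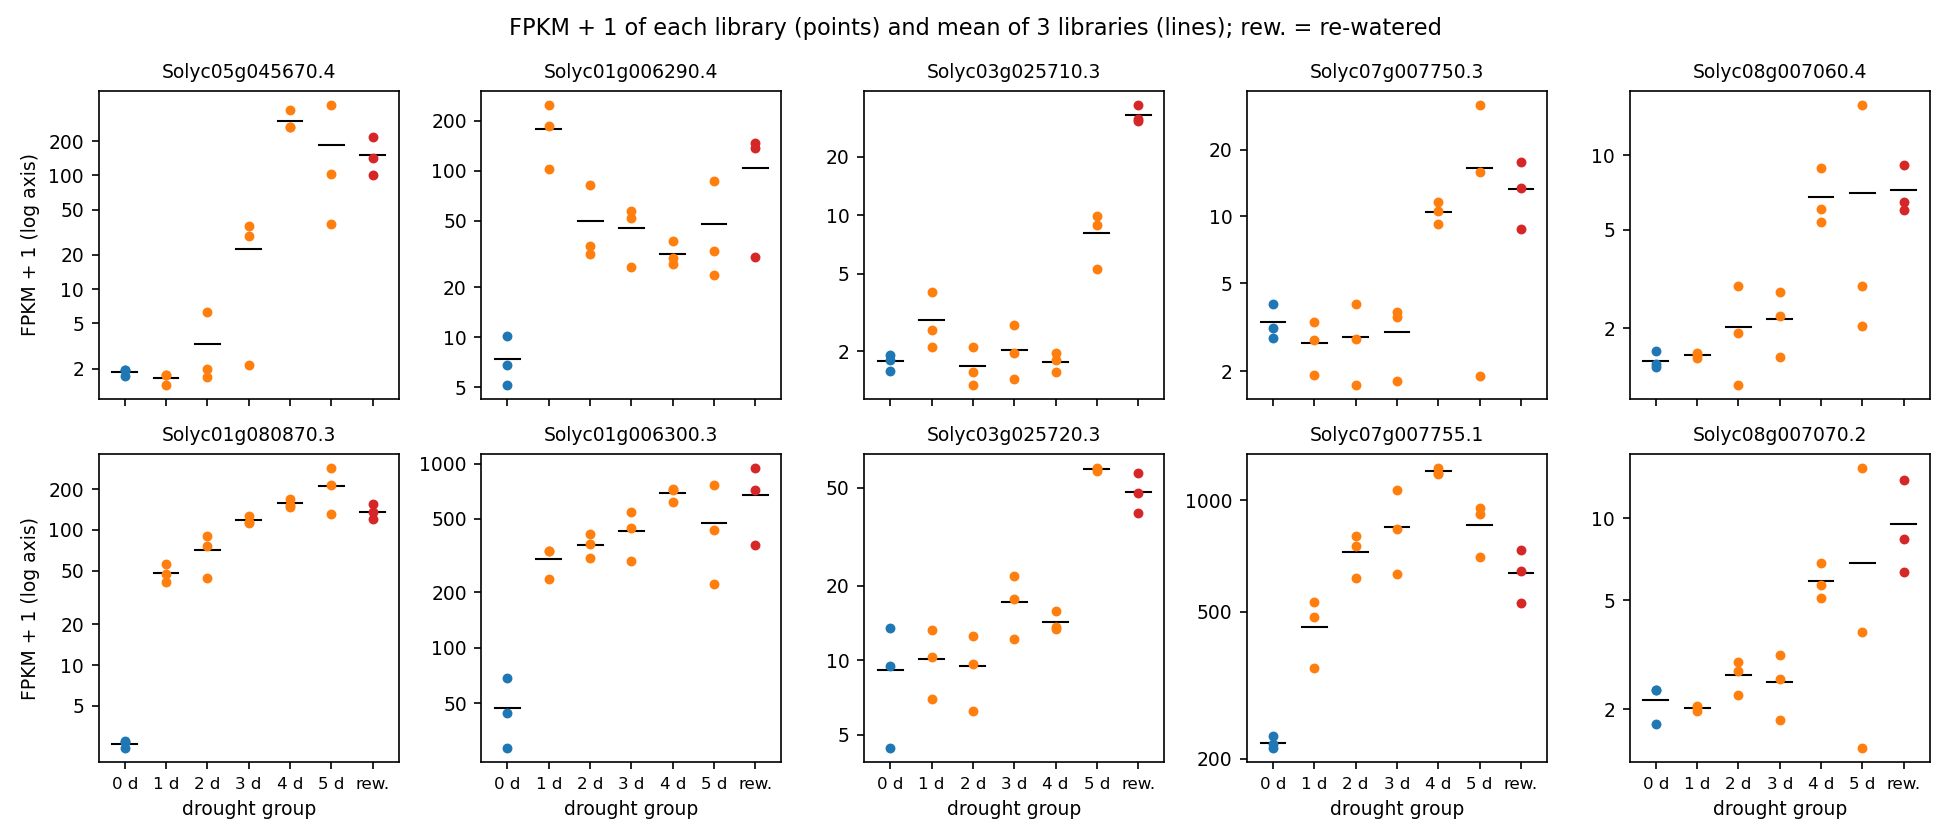
FPKM + 1 on a log axis in every drought library (points) with the group mean (lines) for the 2 members with the largest rise after re-watering (left column) and the 4 neighbouring pairs (other columns), D-0d in blue, D-1d to D-5d in orange and D-Recovery in red. The pair on chromosome 3 stayed low until D-4d, while *Solyc01g080870.3* and the pair on chromosome 1 were raised at D-1d.

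*Solyc05g012230.4* was the one member in the gene list of the paper, where it has no symbol. It was at 1.27, 1.44 and 1.03 FPKM at D-0d, between 3.14 and 3.95 FPKM at D-4d, 22.9, 14.1 and 23.4 FPKM at D-5d and 6.46, 7.37 and 5.47 FPKM at D-Recovery, and none of these groups overlapped. By ID, 16 of the 90 members (17.8%) lie on chromosome 1, which holds 12.1% of the listed genes, and 10 (11.1%) lie on chromosome 7, which holds 7.39%.

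The tests compared groups that the rule did not use. The spread behind them was estimated over all groups of a series, those of the rule included. Genes were called at an adjusted p of 0.05 or less (limma, Benjamini-Hochberg over all genes tested) with a log2 fold change of FPKM + 1 of at least 1 in size. Between D-1d and D-4d 44 members rose. All 90 members passed the filter of 1 FPKM in 3 libraries, of which 44 (48.9%) were called higher at D-4d, beside 4.56% of all 19963 genes tested, and 1 was called lower, beside 6.83%. The filter counted libraries of all drought groups, so the groups of the rule helped members to pass. In a fit of the 2 groups alone, 87 members were tested. Of these 48 were called higher, beside 5.21% of all genes, and 2 lower, beside 7.49%. The median log2 fold change was 1.20 in the members and 0.12 in all genes. With each library scaled to the median ratio, 40 members were called higher, beside 3.11% of all genes, and 2 lower, beside 8.36%. The members were chosen for a high level at D-5d against D-0d, so these counts describe when the rise took place. Among the 670 genes that met the same conditions at D-5d and at 24 h of heat but not after re-watering, 666 were tested, of which 236 (35.4%) were called higher and 4 lower, and the difference between the 2 sets was not tested.

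Between D-1d and D-2d 10 of the 90 members were called. At D-2d 9 (10%) were called higher, beside 0.691% of all genes, and 1 (1.11%) lower, beside 1.54%. The median log2 fold change was 0.29 in the members and 0.05 in all genes. With median-ratio scaling, 7 members were called higher, beside 0.486% of all genes, and 1 lower, beside 1.84%. In a fit of these 2 groups alone, 83 members were tested. Of these 9 were called higher, beside 0.618% of all genes, and 1 lower, beside 0.993%. The count of 10 called members was 5 without replicate 1 of D-1d and 4 without replicate 2 of D-2d. Over all genes 446 were called, and 233 without replicate 1 of D-1d, 208, 180 and 845 without replicate 1, 2 or 3 of D-2d. In the 670 genes under 1.5 after re-watering, 57 of 666 were higher and 4 lower.

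*Solyc05g045670.4* gave the largest change of the members, with a log2 fold change of 7.50 (SE 0.87, adjusted p = 1.57e-05, limma) at D-4d against D-1d. In *Solyc01g080870.3* it was 1.72 (SE 0.25, adjusted p = 6.48e-05). *Solyc01g006290.4* was the 1 member called lower at D-4d, by -2.42 (SE 0.58, adjusted p = 0.00323), while its neighbour *Solyc01g006300.3* was called higher by 1.20 (SE 0.41, adjusted p = 0.0257). The call of *Solyc01g006300.3* was lost without replicate 2 of D-1d or replicate 1 or 2 of D-4d (adjusted p 0.0673 to 0.0933). *Solyc01g006290.4* was also the 1 member called lower at D-2d (-1.90, adjusted p = 0.0419), a call that was lost without replicate 1 or 3 of D-1d or replicate 1 or 2 of D-2d (log2 fold changes of -1.61 to -1.82, adjusted p 0.119 to 0.147) and with no filter on low values (-1.90, adjusted p = 0.0617). The pair on chromosome 3 was not called in this comparison, with log2 fold changes of -0.67 and 0.53 (adjusted p = 0.0577 and 0.221). The pair on chromosome 7 was called higher, with 2.00 in *Solyc07g007750.3* and 1.42 in *Solyc07g007755.1* (adjusted p = 0.0243 and 5.31e-05), as was that on chromosome 8, with 2.09 in *Solyc08g007060.4* and 1.53 in *Solyc08g007070.2* (adjusted p = 0.00432 and 0.0292). The calls of *Solyc07g007750.3* (without replicate 1 or 2 of either group) and of *Solyc08g007070.2* (without any 1 of the 6 libraries) were lost at adjusted p 0.0506 to 0.0871.

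**Figure D4:**
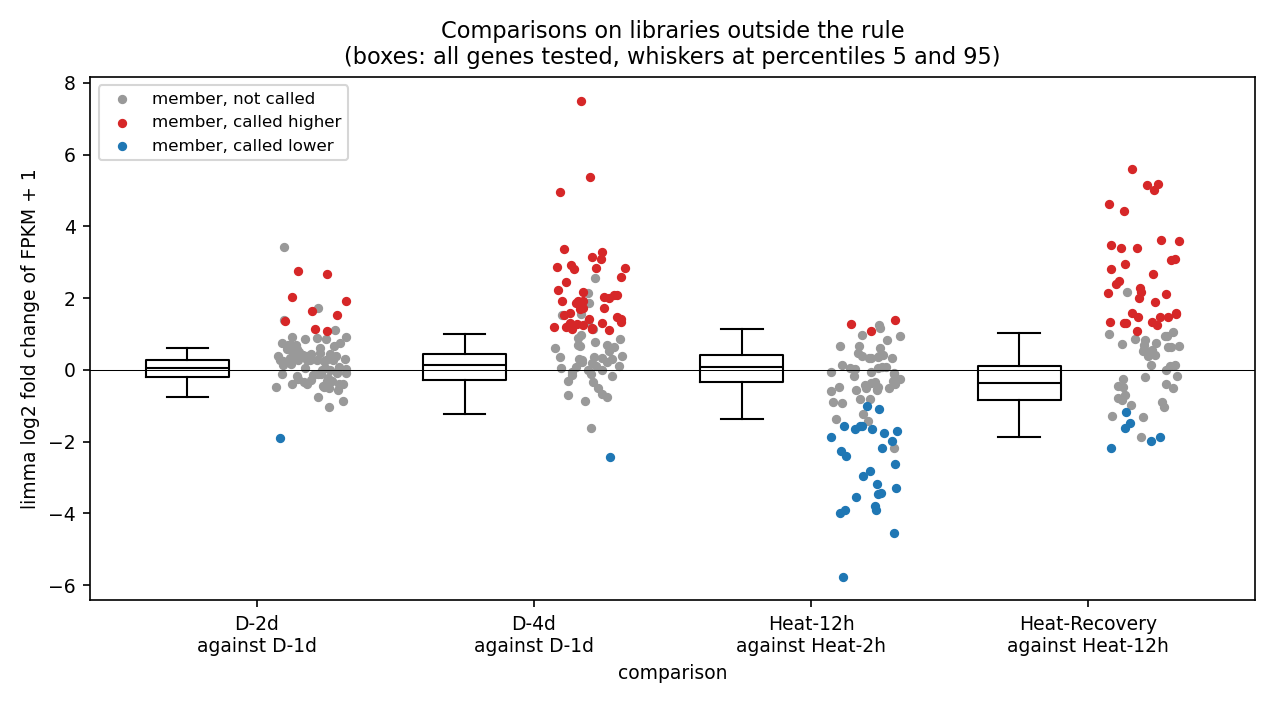
log2 fold change of FPKM + 1 (limma) in the 4 comparisons of libraries outside the rule, with all genes tested as boxes (median and quartiles, whiskers at percentiles 5 and 95) and the members as points, red where called higher, blue where called lower and grey where not called. The members lean upward at D-4d against D-1d (44 of 90 called higher) and downward at 12 h against 2 h of heat (28 of 80 called lower).

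Under heat the members' median lay below Heat-0h throughout, and lowest at 12 h. Their median difference was -0.42 for Heat-2h, -0.63 for Heat-4h, -0.92 for Heat-12h, -0.58 for Heat-24h and -0.41 for Heat-Recovery, and over all 18923 genes tested it was -0.20, -0.41, -0.12, -0.52 and -0.53. With median-ratio scaling the members' median was -0.22 for Heat-2h, -0.24 for Heat-4h and 0 for Heat-Recovery. In Heat-12h, 26 members had fallen by 2 or more, as had 3.79% of all genes. The rule took out genes raised at 24 h and used the Heat-0h libraries, so these values carry no test.

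The test of 12 h against 2 h of heat compared neither Heat-0h nor Heat-24h, although both entered the estimate of the spread. Of the 90 members 80 passed the filter in the heat table, and the other 10 were not tested. The filter counted libraries of all heat groups, so Heat-0h and Heat-24h, which the rule used, could help members to pass. At 12 h 28 (35%) were called lower, beside 6.64% of all 18923 genes tested, and 3 were called higher, beside 4.41%. The median log2 fold change was -0.53 in the members and 0.07 in all genes. In the 670 genes under 1.5 after re-watering, 577 were tested, of which 30 were called lower and 57 higher, with a median of 0.22, and the difference between the sets was not tested. Replicates 2 and 3 of Heat-12h correlated at 0.889, the lowest value within a group. Without both of them, Heat-12h is left at 1 library that is assumed to vary like the other groups. The median log2 fold change was then -0.62 in the members and 0.34 in all genes. Without replicate 3 of Heat-12h alone, 26 members were called lower, beside 4.28% of all genes, and 3 higher, beside 6.81%. Without replicate 2 of Heat-2h, 27 were called lower, beside 5.24% of all genes, and 1 higher, beside 3.05%. In a fit of the 2 groups alone, 74 members were tested. Of these 26 were called lower, beside 4.55% of all genes, and 1 higher, beside 3.24%. The antenna genes summed to 2409 to 4119 FPKM at 12 h and to 50435 to 80621 FPKM at 2 h, and the part of leaf makeup in the members' fall was not tested.

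The fall at 12 h was most frequent in the members that rose late in the drought. Of the 17 first raised at D-5d all were tested, and 13 were called lower at 12 h. Of the 30 tested members first raised at D-1d 9 were, as were 1 of 8 for D-2d, 1 of 4 for D-3d and 4 of 21 for D-4d. The days come from the drought table and the calls from the heat table. This grouping was made after the values were seen, and it was not tested. The members of these days also stood at unlike levels before the heat. Their median at Heat-0h was 58.1 FPKM for D-5d, and from 0.981 FPKM (D-2d) to 20.8 FPKM (D-3d) for the other days. A member under 1 FPKM at 2 h cannot fall by 1 in log2(FPKM + 1), so it cannot be called lower. The part of the starting level in these counts was not tested. Of the 28 members lower at 12 h, 10 were called higher at D-4d against D-1d, against 29 of the 52 that were tested and not lower.

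*Solyc03g025710.3* had the largest fall, from 111, 136 and 99.1 FPKM at 2 h to 0.961, 1.01 and 1.43 FPKM at 12 h, and it was back at 84.1, 111 and 48.3 FPKM at 24 h. The log2 fold change at 12 h against 2 h was -5.76 (SE 0.31, adjusted p = 1.45e-08, limma). Its neighbour *Solyc03g025720.3* went from 54.4, 46.2 and 40.7 FPKM to 4.51, 4.10 and 7.22 FPKM and back to 49.4, 76.4 and 60.1 FPKM in Heat-24h, the log2 fold change being -2.96 (adjusted p = 5.90e-07). Both genes thus stood low at 12 h and near their Heat-0h level at 24 h, with no overlap between the 12 h libraries and either neighbouring time given here. *Solyc10g005080.3*, chosen after its values were seen for the largest difference from Heat-0h, had 92.4, 135 and 111 FPKM at 0 h, 0.583, 0.391 and 0.283 FPKM at 12 h and 21.1, 45.9 and 29.0 FPKM at 24 h. It was also a late drought gene, with 2.08 ± 0.173 FPKM at D-4d, 18.8 ± 7.53 FPKM at D-5d and 22.4 ± 3.32 FPKM at D-Recovery (SD, n = 3).

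*Solyc01g080870.3* and *Solyc05g045670.4* were low at both 12 h and 24 h. *Solyc01g080870.3* was at 31.9, 58.9 and 59.4 FPKM at Heat-0h, 0.916, 0.803 and 1.45 FPKM at 12 h and 3.30, 4.30 and 4.35 FPKM in Heat-24h, and it was called lower at 12 h against 2 h (-2.83, adjusted p = 0.000711). *Solyc05g045670.4* was at 9.32, 20.9 and 13.8 FPKM at Heat-0h and at 0.202, 0.265 and 0.0722 FPKM at 12 h. Its call at 12 h against 2 h (-2.39, adjusted p = 0.0194) was lost without replicate 3 of 2 h, the one 2 h library at 23.8 FPKM beside 2.32 and 1.85 FPKM, where the change was -1.39 (adjusted p = 0.0833), and in a fit of the 2 groups alone (-2.39, adjusted p = 0.0658). With Heat-12h left at 1 library, without replicates 2 and 3, the change was -2.36 (adjusted p = 0.124). Of the 26 members that had fallen by 2 or more at 12 h, 12 were within 1 of Heat-0h again at 24 h.

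*Solyc05g012230.4* was also called lower at 12 h (-1.99, adjusted p = 0.00119), as were *Solyc01g006290.4* (-3.30, adjusted p = 0.00201) and *Solyc05g024260.3* (-1.64, adjusted p = 0.0037). The pairs on chromosomes 7 and 8 and *Solyc01g006300.3* were not called in this comparison. High heat values in some members came from a single library. *Solyc11g050890.2*, chosen after its values were seen, was listed at 104 FPKM in 1 library of 2 h and at 121 FPKM in 1 library of 4 h, and at 0 in all other heat libraries. An exact 0 in these tables can be a failed estimate.

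After the heat, 36 members stood higher than at 12 h. At Heat-Recovery against 12 h, which shares the 12 h libraries with the comparison before it, these 36 of the 80 tested members (45%) were called higher, beside 4.21% of all genes, and 6 lower, beside 17.6%. The median log2 fold change was 0.94 in the members and -0.37 in all genes. With median-ratio scaling, 9.65% of all genes were called higher and 9.12% lower, their median was 0.00, and 46 members were called higher and 5 lower. Without replicate 3 of Heat-12h, 37 members were called higher, beside 2.78% of all genes, and 9 lower, beside 24.1%. In a fit of the 2 groups alone, 76 members were tested. Of these 37 were called higher, beside 4.3% of all genes, and 7 lower, beside 18.4%. Of the 577 tested genes under 1.5 after re-watering, 30 were higher and 127 (22.0%) lower, and the difference between the sets was not tested.

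*Solyc05g045670.4* was at 54.4, 47.1 and 19.8 FPKM at Heat-Recovery, all above 0.265 FPKM, its highest 12 h library (log2 fold change 5.02, SE 0.65, adjusted p = 4.71e-05, limma). *Solyc01g006290.4* was at 243, 89.4 and 86.1 FPKM, against 6.39, 40.1 and 2.62 FPKM at 12 h (3.59, adjusted p = 0.000515). The log2 fold change was 4.44 in *Solyc03g025710.3* and 2.38 in *Solyc03g025720.3* (adjusted p = 1.73e-07 and 4.58e-06), and these had already returned at 24 h. Of the named members, *Solyc02g071220.3* was called lower (-2.18, adjusted p = 0.00319), at 3.81 ± 1.5 FPKM in Heat-Recovery (SD, n = 3), while it had its highest drought level after re-watering.

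Against Heat-0h, 12 members stood higher by 1 or more at Heat-Recovery, as did 1.93% of all genes, and 27 stood lower by 1 or more, as did 25.2%. *Solyc08g080650.3* was among the higher ones, with 170, 132 and 237 FPKM at Heat-0h and 890, 778 and 428 FPKM at Heat-Recovery, with no overlap. Its call against 12 h (2.12, adjusted p = 0.0254) was lost without replicate 1 of Heat-12h or replicate 1 or 2 of Heat-Recovery (log2 fold changes of 1.86 to 2.01). *Solyc07g007755.1* was at 117, 89.0 and 94.6 FPKM at Heat-0h and at 197, 265 and 203 FPKM at Heat-Recovery, again with no overlap, and it was called higher against 12 h (1.90, adjusted p = 0.00318).

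The 2 untreated groups of the study differed widely for these genes. The median level of the members was 3.41 FPKM at D-0d and 18.3 FPKM at Heat-0h, and 42 of the 90 members (46.7%) were higher by 1.5 or more at Heat-0h, beside 2.65% of the 13535 genes with 5 FPKM or more at D-5d. In the 670 genes under 1.5 after re-watering, chosen for the same rise from D-0d at D-5d, 45 (6.72%) were. The tables were normalized separately, and the rule favours genes that are low at D-0d and not low at Heat-0h, so these values are a description with no test. In 30 members the mean at Heat-0h was at or above that at D-5d.

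By median the gap was widest in the members first raised at D-5d, whose median was 2.72 FPKM at D-0d and 58.1 FPKM at Heat-0h, and 15 of these 17 were higher by 1.5 or more. *Solyc03g025710.3* was at 74.5, 98.8 and 81.1 FPKM at Heat-0h, above all of its drought libraries, of which the highest read 36.2 FPKM. *Solyc10g005080.3*, with 113 ± 21.2 FPKM at Heat-0h and 1.69 ± 0.240 FPKM at D-0d (SD, n = 3), did the same. For both genes the raised level in drought and after re-watering was below that of the untreated plants of the heat series.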

How the data were processed

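For each series, the values deposited by the authors are FPKM, with genes in rows and libraries in columns. Trimmomatic, TopHat and Cuffdiff are the tools given in the submitters' processing notes. The paper describes alignment to the ITAG4.0 annotation, with reads kept at a single location, and its methods do not mention the drought series. Because FPKM do not hold whole fragments, no count test was applied. Each table was taken to have its own normalization and was tested on its own. The 3 untreated columns of the drought table were taken as D-0d, without replicate numbers.

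The members and gene lists were chosen with earlier results of these data known. All groups of a table were fitted together on log2(FPKM + 1) with limma 3.58.1 and R 4.3.3 (trended empirical Bayes), over genes that reached 1 FPKM in 3 libraries or more. The fit was tested on simulated data. Library depth is unknown in fragments. Relative depth, read from the smallest FPKM steps, ranged from 0.737 to 1.45 of the median library in 20 drought libraries and from 0.94 to 1.36 in 17 heat libraries, and was not settled for replicate 2 of D-3d and replicate 2 of Heat-Recovery (0.607).

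Genes were named by rule: members with a name, the 2 members with the largest rise after re-watering, members that neighbour each other in ID order, and members in the gene list of the paper. Others are marked where they appear. Lists by function and by cell type other than the antenna genes were not run, since 0 gene IDs matched the RefSeq table (assembly SLM_r2.1). Alternatives were a pseudocount of 0.1, no filter, median-ratio scaling, the 2 groups alone, the replicate number as a block, no minimum fold change and each library left out. For the rule they were also no minimum FPKM and the mean of log values.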

Additional observations from a re-analysis of the deposited data

How the results depend on the processing

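The count of genes that met the rule was 66 with median-ratio scaling (65 of them among the 90), 131 with a pseudocount of 0.1 (87), 103 without a minimum FPKM (90) and 79 on the mean of log2(FPKM + 1) (77), and 81 to 116 with each library left out. With each library left out, called members numbered 4 to 14 at D-2d against D-1d (main count 10), 41 to 44 at D-4d against D-1d (45), 28 to 29 at 12 h against 2 h of heat (31) and 37 to 46 at Heat-Recovery against 12 h (42). The other alternatives kept each count within 1.5 times. The median difference from the untreated group moved with median-ratio scaling to 0.85 at D-1d, 1.43 at D-3d, 1.89 at D-4d, -0.22 at Heat-2h, -0.24 at Heat-4h and 0 at Heat-Recovery. With a pseudocount of 0.1 it moved to 1.23 at D-1d, 1.71 at D-2d, 1.91 at D-3d, 2.45 at D-4d and -0.84 at Heat-4h. The cause was not tested. Of the alternatives run for single members named here, 310 kept the call, 26 lost it and none reversed the direction.

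Deviations of libraries with the same replicate number correlated only weakly (-0.104 to 0.183), and the main fits used no pairing. With 3 libraries per group, these values cannot exclude a pairing. With the replicate number as a block, 10, 46, 31 and 42 members were called in the 4 comparisons, and of the single members *Solyc01g006290.4* lost its call at D-2d (adjusted p = 0.0549). Leaving out replicate 2 of D-3d, replicates 2 and 3 of Heat-12h, and the 8 members listed at 0 in a library beside 1 FPKM or more in the same drought group were alternatives chosen after seeing the data. Without replicate 2 of D-3d, 10 and 45 members were called in the drought comparisons. Without those 8 members 45 were called at D-4d against D-1d. The FPKM tables hold no fragment counts, so no counting error can be given for members near 1 FPKM.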
